A study of Mus musculus with 6 samples.

Results

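The angiotensin and adrenergic receptor system was followed through 8 genes, Agt, Ace, Agtr1a, Agtr2, Nr3c2, Adrb1, Adra1a and Adra1b, which were chosen by name out of the 17524 genes of the deposited table. All 8 were found in it, and 7 had enough reads to be tested. The data are 6 RNA-seq libraries of mouse heart, 3 from control and 3 from TFEB overexpression mice, and both groups had the anterior descending branch of the left coronary artery ligated, so no uninjured heart is included. The control libraries 35, 36 and 37 carry the genotype label WT, and the libraries 34, 41 and 43 carry the label TFEB overexpression. The series gives the line as R26-LSL-TFEB [+/+]; Acta2-cre: a TFEB cassette behind a loxP-stop-loxP block at Rosa26, released by Cre under the Acta2 promoter, which is active in smooth muscle and myofibroblasts. Whether the WT controls carried Cre or the cassette, how long after ligation the hearts were taken, and the age of the mice are not stated in the labels. The labels do not say that each library is a separate animal. The p-values therefore describe the spread between these libraries, which may not be a spread between animals.

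In the renin-angiotensin system, renin cuts angiotensinogen (Agt) to angiotensin I, and angiotensin-converting enzyme (Ace), a peptidase of the endothelial surface, trims this to angiotensin II. Angiotensin II acts through the type 1 receptor (Agtr1a, with the close copy Agtr1b in rodents), which couples to Gq, and through the type 2 receptor (Agtr2). It also drives release of aldosterone, the hormone of the mineralocorticoid receptor (Nr3c2). Noradrenaline and adrenaline act on heart muscle through the beta-1 receptor (Adrb1), which couples to Gs and raises cAMP, and through the alpha-1 receptors (Adra1a and Adra1b), which couple to Gq. Drugs against ACE, the type 1 receptor, the mineralocorticoid receptor and the beta-1 receptor are standard treatment after a heart attack.

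Library totals ran from 12942480 to 14969287 estimated counts. Tfeb stood at 34.4, 33.8 and 41.4 CPM (counts scaled to a common library depth) in controls 35, 36 and 37, against 45.4, 45.3 and 39.4 CPM in TFEB 34, 41 and 43. The groups overlapped, since the library labelled TFEB 43 lay below control 37, though above controls 35 and 36. The Tfeb level, measured over all cells of the tissue, therefore does not set that library apart from the controls. Acta2, the gene whose promoter drives Cre, stood at 105.6, 100.3 and 137.5 CPM in controls 35, 36 and 37. In TFEB 34, 41 and 43 Acta2 stood at 214, 291.1 and 173.9 CPM. Its groups did not overlap, as in 4.75% of all genes, and it did not pass the test. Release of the cassette in each library was not tested. Throughout, TFEB 34, 41 and 43 are the libraries so labelled. The log2 fold change of Tfeb was 0.25 (SE 0.12) and it did not pass the test. The labels name fibroblasts, but the cardiomyocyte myosin gene Myh6 stood at 7110 to 12760 TPM (transcript abundance scaled for length and depth). The fibroblast receptor gene Pdgfra stood at 17.1 to 32.5 TPM and the collagen gene Col1a1 at 48.55 to 870 TPM. The libraries differed in the levels of cell type marker genes. The level of 15 cardiomyocyte genes, as the mean log2 CPM relative to the 6 libraries, ran from −0.15 in control 36 to 0.27 in control 37 and from −0.46 in TFEB 34 to 0.36 in TFEB 43. The level of 10 scar matrix and myofibroblast genes ran the other way, from −1.94 in control 37 to 1.45 in control 36 and from −2.93 in TFEB 43 to 2.25 in TFEB 34. All 15 and all 10 listed genes were detected and tested.

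The members differed widely in abundance. By mean TPM over the 6 libraries the order was Ace (53.9), Agtr1a (32.2), Adra1b (29.3), Adrb1 (11.7), Adra1a (9.33), Nr3c2 (8.13), Agt (5.33) and Agtr2 (0.060). The TPM ranges of most neighbours in this order overlapped. Ace was above Agtr1a in 5 of 6 libraries and Agtr1a above Adra1b in 4 of 6, and the TPM ranges of each of these pairs overlapped. Adrb1 was above Adra1a in 6 of 6 libraries, with ranges of 7.36 to 16.3 and 6.69 to 14.2 TPM. Adra1b was likewise above Adrb1 in 6 of 6 libraries, although their ranges over the libraries overlapped. By range, only Agtr2 lay clear of its neighbour, since its highest TPM of 0.13 was below the lowest of Agt, 3.02.

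**Figure D1:**
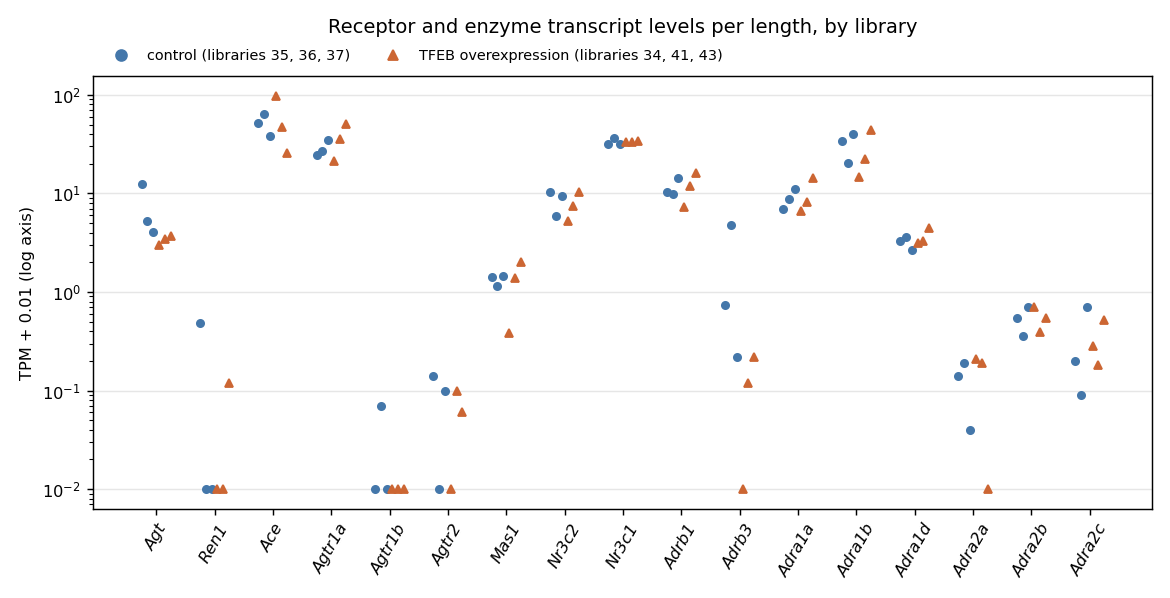
TPM (plus 0.01, log axis) of angiotensin, corticosteroid receptor and adrenergic receptor genes in each library, control as circles and TFEB overexpression as triangles. Ace, Agtr1a and Adra1b sit highest among the members, Agtr2 has no value above 0.13 TPM, and points at the bottom are genes listed at 0.

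No member passed the test between the groups. Of the 7 tested, 0 were called by edgeR at an adjusted p under 0.05, and the same held for 0% of the 13565 genes tested. Agt was the only member with an unadjusted p under 0.05, which 1.21% of all genes had. Values were higher in TFEB overexpression for 4 members and lower for 3, with a median log2 fold change of 0.06 against 0.003 for all genes.

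Agt, the gene of the angiotensin precursor (Entrez 11606, mm10 chromosome 8, 124556587 to 124569706), was low in 5 libraries and higher in a single control. It stood at 12.0, 4.70 and 4.12 CPM in controls 35, 36 and 37, from 179, 67 and 53 counts. In TFEB 34, 41 and 43 it stood at 2.67, 3.30 and 3.80 CPM, from 42, 45 and 46 counts. All 3 TFEB libraries were below all 3 controls, a pattern that 2.51% of all genes showed, but the gap between control 37 and TFEB 43 was small. The groups averaged 6.95 ± 4.40 and 3.26 ± 0.57 CPM (SD over 3 libraries). The log2 fold change was −1.10 (SE 0.45, 95% interval −2.19 to −0.007), with an unadjusted p of 0.0489 and an edgeR adjusted p of 1.00.

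Control 35 carried most of that difference. Without it the log2 fold change of Agt was −0.44 (unadjusted p = 0.148). Genes of atrial muscle were also highest in control 35: Myl4, the atrial essential light chain, measured 1953, 2.95 and 182 CPM in controls 35, 36 and 37, against 3.37, 11.4 and 52.8 CPM in TFEB 34, 41 and 43. The level of the 3 atrial genes tested ran from −4.46 to 6.47 in control and from −4.75 to 1.17 in TFEB overexpression. The fourth, Bmp10, had 35 counts in control 37, 43 in TFEB 43 and at most 1 elsewhere. With the atrial level as a covariate, a fit added after these levels were seen, Agt stood at −0.67 (SE 0.38). The level of the 5 adipocyte genes tested was 1.24, 2.99 and 0.12 in controls 35, 36 and 37 and −3.15, −0.53 and −0.66 in TFEB 34, 41 and 43. Ucp1, a gene of brown fat, had 35 counts in control 35 and at most 1 count elsewhere. The part of atrial tissue in the Agt values was not tested beyond the fit with the atrial level, and the part of fat tissue was not tested. In bulk tissue, fewer cells of a type and less RNA per cell cannot be told apart.

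Ace (Entrez 11421, chromosome 11, 105967948 to 105989964) varied 3.08-fold over the 6 libraries without a detected difference between the groups. It measured 141, 172 and 114 CPM in controls 35, 36 and 37, against 240, 128 and 78.0 CPM in TFEB 34, 41 and 43. The highest and the lowest library both belonged to TFEB overexpression, on either side of all 3 controls. The groups averaged 142 ± 29.3 and 149 ± 83.1 CPM (SD, n = 3 each), a log2 fold change of 0.07 (SE 0.40, 95% interval −0.91 to 1.04, edgeR adjusted p = 1.00). Its sign turned without TFEB 34 (−0.46) and without control 37 (−0.073).

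The Ace gene has 2 start sites, and the table separates their transcripts. The outer site gives the long somatic enzyme of endothelium, with 2 catalytic domains. An internal site, 7241 bases downstream, gives the short enzyme known from male germ cells. The windows around them, 250 bases before to 50 after each start, are shown because the deposited transcript models split between these sites (RefSeq, mm10, plus strand, 5′ to 3′, chr11:105967698-105967997 and chr11:105974939-105975238). Capitals mark TATAA and CCAAT on either strand.
Ace, outer (somatic) start: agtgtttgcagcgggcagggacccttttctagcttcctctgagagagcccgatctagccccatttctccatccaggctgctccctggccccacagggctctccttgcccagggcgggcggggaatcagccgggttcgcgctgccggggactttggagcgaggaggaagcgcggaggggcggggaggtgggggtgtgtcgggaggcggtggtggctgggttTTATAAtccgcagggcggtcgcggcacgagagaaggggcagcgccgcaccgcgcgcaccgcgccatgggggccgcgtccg
Ace, internal (germinal) start: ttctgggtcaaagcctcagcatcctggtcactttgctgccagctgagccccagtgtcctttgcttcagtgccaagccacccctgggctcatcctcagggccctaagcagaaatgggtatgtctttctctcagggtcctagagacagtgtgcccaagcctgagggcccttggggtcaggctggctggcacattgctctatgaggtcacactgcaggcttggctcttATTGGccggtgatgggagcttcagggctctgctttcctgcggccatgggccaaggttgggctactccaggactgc

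The somatic window held TATAA letters on both strands, overlapping at 30 and 29 bases before the start, and the internal window held CCAAT at 25 bases before it. TATAA was found in 24.9% and CCAAT in 37.4% of the 32851 such windows of all genes. The base composition of the windows differed, with 69.7% G or C and 29 CG pairs at the somatic start and 59.0% and 2 CG pairs at the internal start, against medians of 52.7% and 7 over all windows. The 2 models paired with the somatic start made up most of the Ace signal in every library. The internal-start model took 6.60, 0 and 1.97 TPM in controls 35, 36 and 37 and 15.1, 4.47 and 1.18 TPM in TFEB 34, 41 and 43. Its share of the Ace counts was 8.19%, 0% and 3.25% in control and 10.1%, 6.08% and 2.87% in TFEB overexpression, so the groups overlapped. Most of its sequence also lies in the longer models. Its counts are therefore the output of an estimate, and the 0 in control 36 may be a failed one.

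**Figure D2:**
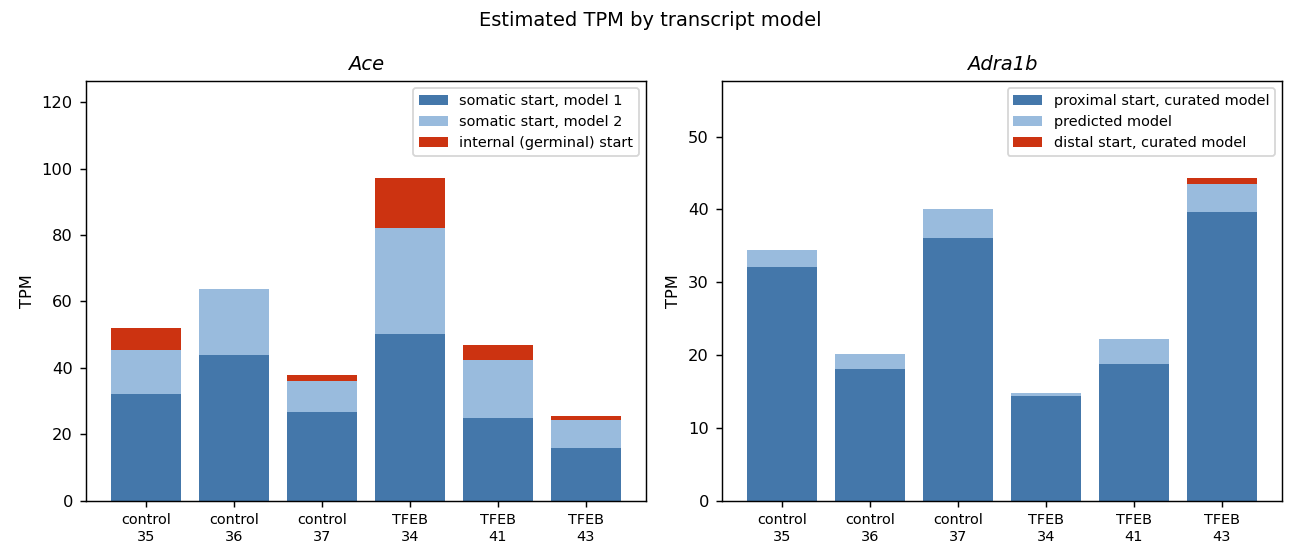
Stacked bars of estimated TPM per library for the transcript models of Ace (left) and Adra1b (right), with the models of the alternative start in red. The somatic models make up most of Ace in each library, and the distal model of Adra1b is listed above 0 only in TFEB 43, at 0.86 TPM.

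Other enzymes and receptors of angiotensin peptides were measured beside the members. Renin (Ren1) was at the edge of detection, with 5 counts in control 35, 1 in TFEB 43 and 0 in the other 4 libraries. Mas1, a receptor of angiotensin 1-7, stood at 0.37 to 1.99 TPM. Agtrap, a protein that binds the type 1 receptor and promotes its uptake, was even across libraries at 27.7 to 30.3 TPM. Of 26 listed renin-angiotensin-aldosterone genes outside the members, 23 were in the table and 16 were tested. None of the 16 passed in either direction, 8 had a higher and 8 a lower value, and the median log2 fold change was 0.001. Enpep, the aminopeptidase that converts angiotensin II to III, had the smallest p of this list. It measured 30.1, 32.0 and 26.8 CPM in controls 35, 36 and 37, against 23.2, 23.7 and 22.8 CPM in TFEB 34, 41 and 43, a log2 fold change of −0.35 (SE 0.10, 95% interval −0.59 to −0.11, edgeR adjusted p = 1.00). The groups did not overlap in Enpep or in Lnpep, an aminopeptidase that binds angiotensin IV (−0.20, SE 0.11), which makes 2 of 16 against 4.75% of all genes. Anpep (0.53, SE 0.46) and Ctsa (0.22, SE 0.18) were next.

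The type 1 receptor gene Agtr1a (Entrez 11607, chromosome 13, 30336356 to 30382867) was the most abundant receptor gene among the members by mean TPM over all 6 libraries. In control alone Adra1b averaged higher, at 31.6 against 28.7 TPM for Agtr1a, and in TFEB overexpression lower, at 27.1 against 35.7 TPM. Agtr1a measured 29.9, 31.4 and 45.7 CPM in controls 35, 36 and 37, against 24.1, 43.1 and 67.7 CPM in TFEB 34, 41 and 43. The TFEB libraries spread 2.81-fold and enclosed all 3 controls. The groups averaged 35.7 ± 8.76 and 45.0 ± 21.9 CPM (SD, n = 3 each), a log2 fold change of 0.33 (SE 0.38, 95% interval −0.58 to 1.24, edgeR adjusted p = 1.00). Without TFEB 43 it was −0.087, and without TFEB 34 it was 0.64. The paralogue Agtr1b had 1 count in all 6 libraries together, so reads shared between the copies were assigned almost wholly to Agtr1a. One curated model held 93.2% to 98.2% of the Agtr1a counts in each library.

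The type 2 receptor gene Agtr2 (Entrez 11609, chromosome X, 21484624 to 21488833) was near the limit of detection. It had 3, 0 and 2 counts in controls 35, 36 and 37 and 0, 2 and 1 in TFEB 34, 41 and 43. It did not pass the filter on low counts, no fold is given, and a difference between the groups was not detectable at this depth.

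Nr3c2, the mineralocorticoid receptor gene (Entrez 110784, chromosome 8, 76898083 to 77245012), measured 33.0, 18.3 and 33.2 CPM in controls 35, 36 and 37, against 15.5, 24.0 and 36.9 CPM in TFEB 34, 41 and 43. Control 36 and TFEB 34 were low, and the groups overlapped. The groups averaged 28.1 ± 8.56 and 25.5 ± 10.8 CPM (SD, n = 3 each), a log2 fold change of −0.15 (SE 0.37, 95% interval −1.03 to 0.73, edgeR adjusted p = 1.00). The value turned to 0.11 without TFEB 34. The glucocorticoid receptor gene Nr3c1, whose product binds many of the same DNA sites, was more abundant and even across libraries, at 31.6 to 36.6 TPM against 5.20 to 10.4 TPM for Nr3c2. Hsd11b2, the enzyme that shields the mineralocorticoid receptor from glucocorticoids in kidney, had at most 3 counts in any library. Its counterpart Hsd11b1, which regenerates active glucocorticoid, stood at 13.3 to 20.4 TPM.

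Known targets of the mineralocorticoid receptor, many of them shared with the glucocorticoid receptor, were listed as 14 genes, of which 13 were tested. None of them passed, 7 had a higher and 6 a lower value, and the median log2 fold change was 0.002, which turned negative under 11 of 16 alternatives. Sgk1, the aldosterone-induced kinase that keeps sodium channels at the membrane, had the smallest p. It measured 86.2, 73.2 and 95.3 CPM in controls 35, 36 and 37, against 57.1, 66.2 and 65.9 CPM in TFEB 34, 41 and 43. All 3 TFEB libraries were below the controls, by a log2 fold change of −0.43 (SE 0.13, 95% interval −0.73 to −0.13, edgeR adjusted p = 1.00). Tsc22d3 (−0.64, SE 0.28), Per1 (−0.29, SE 0.25) and Klf9 (−0.22, SE 0.20) followed, with overlap between the groups. In this list 1 of 13 genes did not overlap between the groups, against 4.75% of all genes.

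Adrb1, the beta-1 receptor gene (Entrez 11554, chromosome 19, 56722117 to 56725150), measured 17.3, 15.7 and 25.8 CPM in controls 35, 36 and 37. In TFEB 34, 41 and 43 it stood at 11.4, 20.1 and 29.8 CPM. The group means of 19.6 ± 5.45 and 20.4 ± 9.18 CPM (SD, n = 3 each) were closer to each other than the libraries within either group. The log2 fold change was 0.06 (SE 0.37, 95% interval −0.83 to 0.94, edgeR adjusted p = 1.00), and its sign turned without TFEB 43 (−0.32), control 36 (−0.081) or control 35 (−0.029). The beta-3 receptor gene Adrb3, known from fat cells, had 16, 94 and 4 counts in controls 35, 36 and 37 and 0, 2 and 4 in TFEB 34, 41 and 43. It was not tested. Control 36, its highest library, also had the highest adipocyte level, 2.99, and 61 counts of the fat hormone gene Lep against at most 8 elsewhere.

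Adra1a, the alpha-1A receptor gene (Entrez 11549, chromosome 14, 66635251 to 66771240), measured 40.1, 52.4 and 71.8 CPM in controls 35, 36 and 37, against 39.5, 52.1 and 93.1 CPM in TFEB 34, 41 and 43. The lowest and middle libraries of the groups nearly coincided, and TFEB 43 was the highest of all. The groups averaged 54.8 ± 16.0 and 61.6 ± 28.1 CPM (SD, n = 3 each), a log2 fold change of 0.17 (SE 0.36, 95% interval −0.69 to 1.03, edgeR adjusted p = 1.00). Its sign turned without TFEB 43 (−0.26) or control 35 (−0.014). Its 10 transcript models were mostly predicted ones, and a single predicted model took 57.8% to 81.5% of the counts per library.

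Adra1b, the alpha-1B receptor gene (Entrez 11548, chromosome 11, 43774605 to 43901250), had the widest spread of the receptor genes. It measured 62.1, 34.8 and 78.1 CPM in controls 35, 36 and 37, against 24.4, 40.5 and 87.4 CPM in TFEB 34, 41 and 43, a 3.59-fold range. TFEB 34 was the lowest and TFEB 43 the highest of the 6. The groups averaged 58.3 ± 21.9 and 50.8 ± 32.8 CPM (SD, n = 3 each), a log2 fold change of −0.20 (SE 0.51, 95% interval −1.42 to 1.01, edgeR adjusted p = 1.00). It was −0.85 without TFEB 43, and its sign turned without TFEB 34 (0.13) or control 37 (0.065). In TPM, Adra1b exceeded Adra1a 2.21-fold to 4.94-fold, with control 35 at the upper end. The third alpha-1 gene, Adra1d, stood at 2.66 to 4.44 TPM, and the alpha-2 genes Adra2a, Adra2b and Adra2c stood at no more than 0.20, 0.70 and 0.69 TPM.

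Adra1b also has 2 start sites in RefSeq, 64748 bases apart. Their windows are shown because most counts fell to the curated model of the proximal site (RefSeq, mm10, minus strand, 5′ to 3′, chr11:43836440-43836739 and chr11:43901188-43901487). Capitals again mark TATAA and CCAAT on either strand.
Adra1b, proximal start: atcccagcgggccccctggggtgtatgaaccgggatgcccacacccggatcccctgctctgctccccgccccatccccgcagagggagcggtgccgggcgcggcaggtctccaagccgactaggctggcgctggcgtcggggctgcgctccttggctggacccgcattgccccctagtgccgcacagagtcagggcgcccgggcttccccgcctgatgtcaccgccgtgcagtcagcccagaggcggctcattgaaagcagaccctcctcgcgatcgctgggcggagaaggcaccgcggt
Adra1b, distal start: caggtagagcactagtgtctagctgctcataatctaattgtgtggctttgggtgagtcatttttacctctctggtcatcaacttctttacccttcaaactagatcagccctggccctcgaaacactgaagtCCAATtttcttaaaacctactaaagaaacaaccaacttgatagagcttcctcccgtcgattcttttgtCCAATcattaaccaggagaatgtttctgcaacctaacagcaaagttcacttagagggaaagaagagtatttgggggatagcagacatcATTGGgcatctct

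The proximal window was rich in G and C, at 71.3% with 28 CG pairs, and held neither motif. The distal window had 42.3% G or C and 3 CG pairs, and held CCAAT letters 3 times. The curated model of the proximal site took 82.1% to 96.6% of the Adra1b counts per library. The curated model of the distal site took 20.3 counts in TFEB 43 and 0 in the other 5 libraries, and the rest fell to a predicted model. In all, 6 of the 8 members had a window, 8 windows together. The hexamer CACGTG, the core of the sites that TFEB and other E-box factors bind, was in 0 of these 8 and in 7.15% of all 32851 windows, searched on both strands, which read alike for this sequence. The longer TCACGTGA, which contains it, was in 0 of the 8 and in 0.974% of all.

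**Figure D3:**
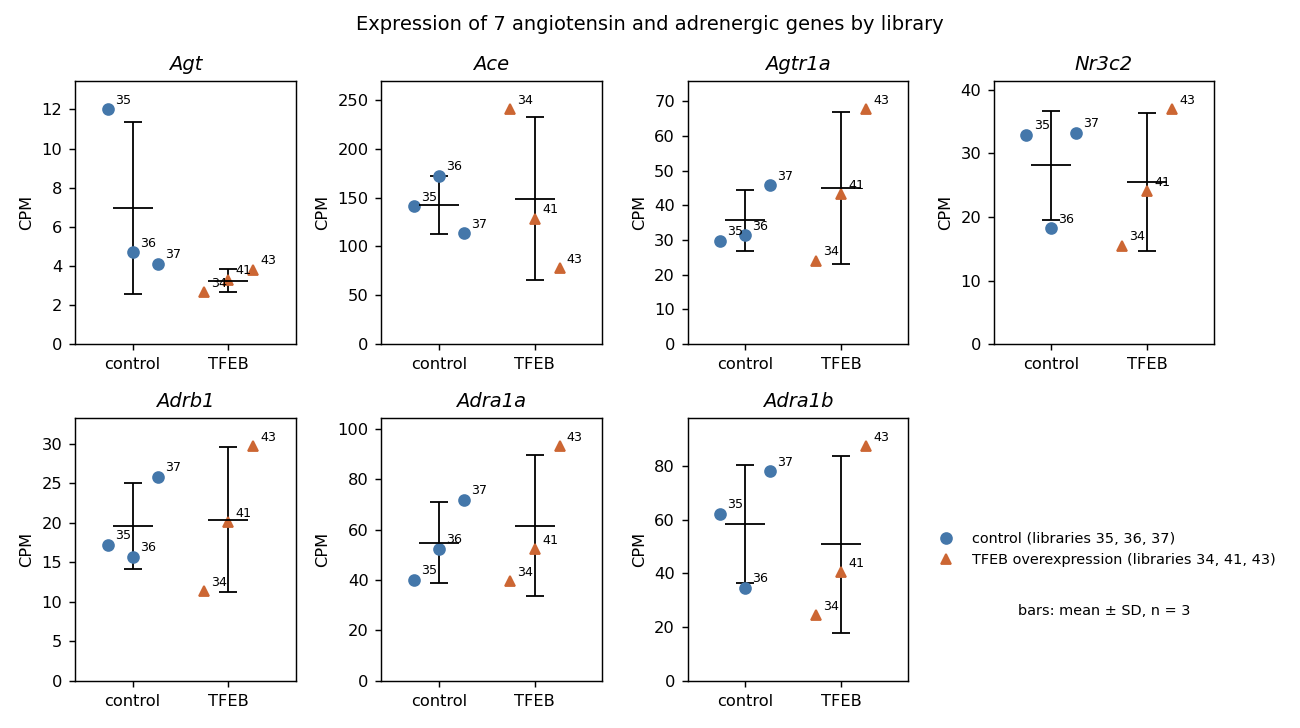
CPM of the 7 tested members in each library, with the library number beside each point and bars for the mean ± SD (n = 3 per group). In Agt the 3 TFEB libraries lie below the controls, from 2.67 to 3.80 CPM against 4.12 to 12.0 CPM. In the other 6 genes the groups overlap.

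The 5 receptor genes that were tested shared their highest, next and lowest library, across the groups. Agtr1a, Nr3c2, Adrb1, Adra1a and Adra1b all had their highest value in TFEB 43, the next in control 37 and the lowest in TFEB 34. The Tfeb level of TFEB 43 lay within the range of the controls. Between TFEB 43 and TFEB 34 the ratio was 2.81 for Agtr1a, 2.39 for Nr3c2, 2.61 for Adrb1, 2.36 for Adra1a and 3.59 for Adra1b. Between control 37 and control 36 it was 1.46, 1.82, 1.64, 1.37 and 2.25 in the same order. The SD of log2 CPM over the 6 libraries was 0.48 to 0.72 in these genes, more than in 83.6% to 92.5% of all tested genes. Ace ranked the libraries the other way, with TFEB 34 at 3.08 times TFEB 43 and control 36 at 1.52 times control 37.

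Several marker levels had the same libraries at their ends. The cardiomyocyte level was highest in TFEB 43 and control 37 and lowest in TFEB 34. Adrb1 had exactly the library order of that level, and Ace exactly the reverse. The scar matrix level was lowest in TFEB 43 and control 37 and highest in TFEB 34, and Nr3c2 and Adra1b had exactly the reverse of its library order. Agtr1a and Adra1a had the full order of neither level. The mean level of genes of endothelium, the main known source of Ace, was even, from −0.07 to 0.05 over all 6 libraries with 10 of 10 genes tested. Single genes of that list were less even. Kdr ran from 200.6 CPM in control 35 and 205.4 CPM in TFEB 34 to 357.7 CPM in TFEB 41. Cdh5 ran from 264.3 CPM in control 35 to 358.8 CPM in control 37, with 318.7 CPM in TFEB 34. Macrophage and monocyte genes, also with 10 of 10 tested, ran from −0.64 to 0.40 in control and from −0.71 to 0.77 in TFEB overexpression, highest in TFEB 34 as Ace was, and in the same library order as the scar matrix level. Smooth muscle and pericyte genes, with 12 of 12 tested, ran from −0.34 in control 35 to 0.34 in TFEB 34. The covariate fits took in muscle, scar and atrial levels only. The muscle and scar levels ran in nearly opposite library order, so these fits cannot assign the values to a cell type. The parts of macrophages, endothelium and smooth muscle were not tested.

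**Figure D4:**
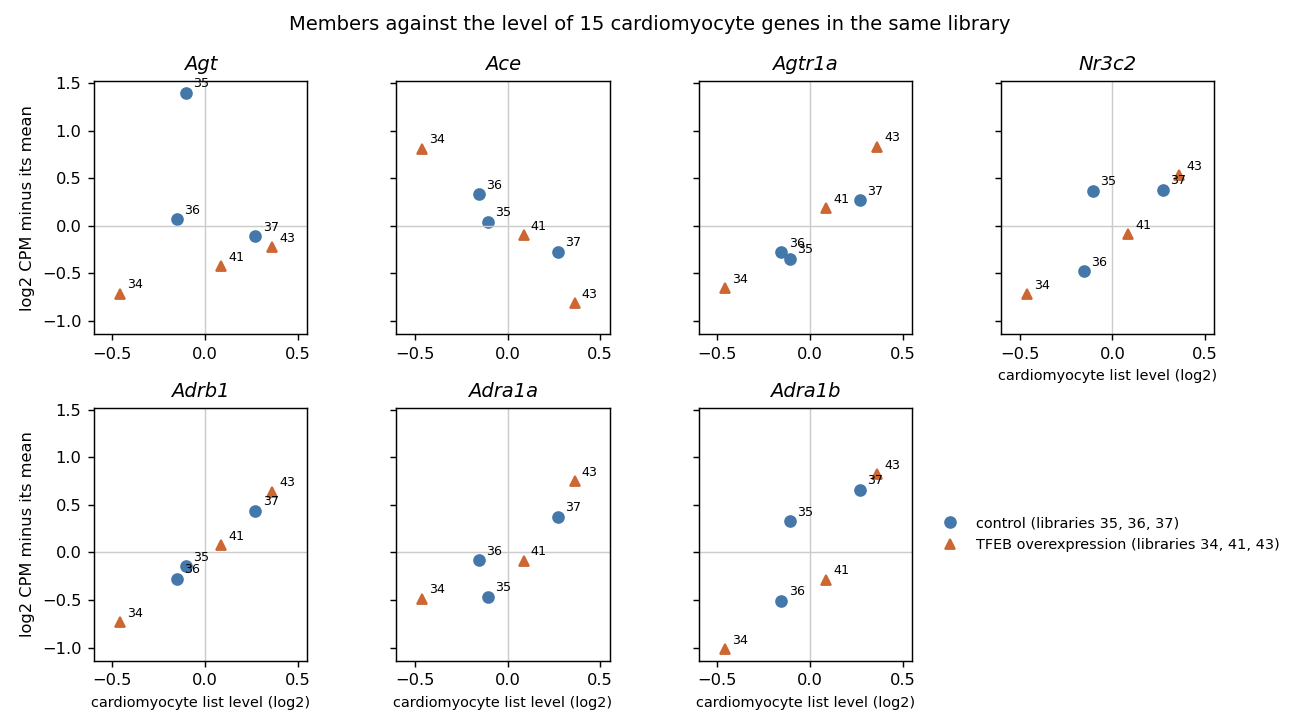
Log2 CPM of each member, minus its mean over the 6 libraries, against the level of 15 cardiomyocyte genes in the same library. Adrb1 rises and Ace falls with the muscle level across both groups, and in Agt control 35 stands above all other libraries.

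With the cardiomyocyte level as a covariate, the intervals of the group difference narrowed for 6 of the 7 members, and none passed. For Adrb1 the log2 fold change was −0.001 with an interval of −0.20 to 0.20, against −0.83 to 0.94 before. For Ace it was −0.08 (−0.37 to 0.21) and for Adra1a 0.13 (−0.28 to 0.53). Nr3c2 stood at −0.20 (−0.72 to 0.31) and Adra1b at −0.32 (−0.88 to 0.23). Agtr1a stood at 0.25 (0.04 to 0.47), with an unadjusted p of 0.0289 and an edgeR adjusted p of 0.970. It was the only one of the 7 with an unadjusted p under 0.05 in that fit, against 3.26% of all genes. Agt stayed at −1.10, with an interval of −2.25 to 0.06.

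The scar matrix level as a covariate also narrowed the intervals of the receptors, and no member passed there either. Agtr1a then stood at 0.32 (−0.09 to 0.73, unadjusted p = 0.108), so that its interval held 0. With the atrial level it stood at 0.48 (SE 0.37, unadjusted p = 0.253). For Adra1b and Nr3c2 the scar fit gave narrower intervals than the cardiomyocyte fit, −0.23 (−0.56 to 0.11) and −0.13 (−0.55 to 0.29). For Adrb1, Ace and Agtr1a they were wider, with Adrb1 at 0.07 (−0.31 to 0.45) and Ace at −0.12 (−0.53 to 0.28). Adra1a stood at 0.16 (−0.25 to 0.56) and Agt at −1.10 (−2.18 to −0.02).

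**Figure D5:**
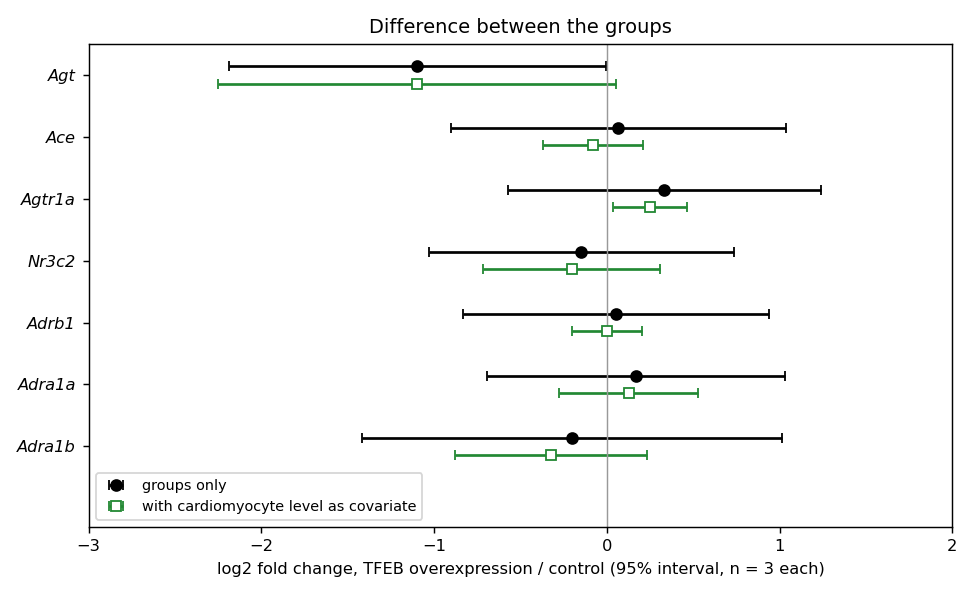
Log2 fold change of the 7 tested members, TFEB overexpression over control, with 95% intervals from edgeR (n = 3 each), for the groups alone (filled circles) and with the cardiomyocyte level as a covariate (open squares). The interval of Adrb1 narrows from −0.83 to 0.94 to −0.20 to 0.20, and that of Agt stays wide.

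The genes most like each member were taken as those with the smallest root mean square difference of log2 CPM over the 6 libraries, after centring, among 10912 genes of at least 5 CPM. For Adrb1 they were Myo5c (0.06), Eci1, an enzyme of fatty acid oxidation in mitochondria (0.07), and Mccc2, an enzyme of leucine breakdown (0.07). Those near Agtr1a included Ttll1 (0.07) and Amigo3 (0.09), and for Nr3c2 they were Tmem35a (0.04), Stat5a (0.04) and Gstm1 (0.06). Whrn (0.09) and Ogdhl (0.12) were among the nearest to Adra1a. Lrrc3b (0.11), the potassium channel gene Kcnd2 (0.13) and the transcription factor gene Hlf (0.14) were nearest to Adra1b. Ace was nearest to Dzip1l (0.05), Tspo, a protein of the outer mitochondrial membrane (0.06), and Tcirg1, a V-ATPase subunit (0.07). Agt had no match as close, with Arl4a at 0.16, Syn2 at 0.26 and Psd3 at 0.26. Among the members themselves Agtr1a and Adrb1 were mutually nearest (0.14), as were Nr3c2 and Adra1b (0.22). With 6 libraries and this many genes, such closeness is a description only.

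Signalling genes downstream of the receptors gave no call. All 41 listed G proteins, adenylyl cyclases, phospholipases, kinases, phosphodiesterases, receptor kinases, arrestins and RGS proteins were tested and none passed. Higher values were seen in 22 and lower values in 19, with a median log2 fold change of 0.03. Genes of this list varied in both directions over the libraries: Pln, the inhibitor of the calcium pump, was highest in TFEB 43 (6032 TPM) and lowest in TFEB 34 (3329 TPM), and the arrestin gene Arrb2 was highest in TFEB 34 (34.9 TPM) and lowest in TFEB 43 (10.7 TPM). Adcy6, a main cyclase of cardiomyocytes, had the smallest p. It measured 485, 317 and 412 CPM in controls 35, 36 and 37, against 290, 306 and 350 CPM in TFEB 34, 41 and 43, a log2 fold change of −0.36 (SE 0.18, edgeR adjusted p = 1.00). Grk6, a kinase that desensitises receptors (0.21, SE 0.12), Plcb4 (−0.18, SE 0.11) and the G protein subunit gene Gnb1 (0.20, SE 0.13) followed. Grk2, the main desensitising kinase of the beta-1 receptor, stood at 0.11 (SE 0.09), and Grk5 at −0.11 (SE 0.18).

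Genes of catecholamine handling and the remaining adrenergic receptors made up 16 listed genes, of which 11 were tested. None of the 11 passed, with 5 higher, 6 lower and a median of −0.003. Dbh, which makes noradrenaline, measured 0.94, 1.05 and 1.95 CPM in controls 35, 36 and 37, against 1.72, 2.42 and 2.81 CPM in TFEB 34, 41 and 43 (log2 fold change 0.82, SE 0.38, edgeR adjusted p = 1.00), from 14 to 34 counts per library. Th, the first enzyme of that pathway, had at most 2 counts in any library. Slc18a2 (−0.47, SE 0.43), Maob (−0.49, SE 0.48) and Pnmt (−0.51, SE 0.53) were next by p, each with overlap between the groups. Maob, a mitochondrial enzyme that degrades amines, measured 103, 48.8 and 115 CPM in controls 35, 36 and 37, against 33.1, 54.9 and 102 CPM in TFEB 34, 41 and 43, with its lowest values in TFEB 34 and control 36 as in Adra1b.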

How the data were processed

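RNA was measured in 6 libraries, 3 per group. Per the submitters' processing notes, which give no role for each tool, the tools were RSEM 1.3.1, DESeq2 1.4.5, Bowtie2 2.3.4.3 and HISAT2 2.1.0, with the build mm10. The estimated counts the authors deposited are per RefSeq transcript and unscaled. TPM, as the authors deposited it, is corrected for length and adds up to the same total in each library. FPKM, also deposited, was not used. The sources used here do not give the strand setting. A further 14 columns, the authors' averages and empty normalised counts, were not used.

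Estimated counts were summed per gene and rounded, and RefSeq's mm10 gene table gave the symbols (117 genes, 0.51% of counts, had none). The groups were compared with edgeR 4.0.16 in R 4.3.3 (filterByExpr, TMM scaling, glmQLFit, glmQLFTest, two-sided) on 13565 genes, with Benjamini-Hochberg adjustment over all of them and calls at 0.05. Pairs of libraries within a group differed far beyond counting noise, by 45.8 to 155.9 in chi-square over its degrees of freedom. Members and lists were chosen with earlier results of these data known. The rule for named genes took in all members and Tfeb, up to 4 genes of smallest p per pathway list, up to 2 of highest mean CPM per marker list, and 3 like genes per member, some of which are not reported here. Others were named after their values were seen. Alternatives were RLE scaling, other filters, DESeq2 1.42.0, limma 3.58.1 on log2 TPM with pseudocounts of 1 and 0.1, each library left out, and covariates for muscle, scar and, added later, atrial level. Figures used matplotlib 3.10.9.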

Additional observations from a re-analysis of the deposited data

How the results depend on the processing

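No member was called under any alternative run. No gene was called in the main fit (164 at an unadjusted p under 0.05), and 1 gene, no member, was called by DESeq2 (262 at an unadjusted p under 0.05). A threshold of 0.1 gave 0. Agt kept its direction under all 16 alternatives, from −1.36 without control 37 to −0.44 without control 35. The other 6 members changed sign under at least 1 alternative. For Agt all TFEB libraries lay below all controls, so leaving out a single library could hardly turn its direction. Its kept direction is therefore no added evidence. On log2(TPM + 1), with and without the filter, Ace stood at −0.036 and Adrb1 at −0.00049, and on log2(TPM + 0.1) at −0.040 and −0.0048. With the cardiomyocyte level Ace stood at −0.082 and Adrb1 at −0.0013, with the scar matrix level Ace stood at −0.12, and with the atrial level, a fit added after seeing the data, Ace stood at −0.31, Nr3c2 at 0.21 and Adra1b at 0.18. With each library left out in turn the ranges were −0.46 to 0.37 for Ace, −0.087 to 0.64 for Agtr1a, −0.51 to 0.11 for Nr3c2, −0.32 to 0.35 for Adrb1, −0.26 to 0.41 for Adra1a and −0.85 to 0.13 for Adra1b. The cause of these changes was not tested. The median of the mineralocorticoid target list ran from −0.28 without TFEB 34 to 0.022 without TFEB 41, with −0.12 to −0.11 on log2 TPM, −0.16 with the cardiomyocyte, −0.13 with the scar and −0.079 with the atrial level. That of the coupling list was 0.08 without control 37. No paired analysis was run because the labels give no pairing or batch. Depth limits Agtr2, Ren1 and Agtr1b, each with at most 5 counts per library.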

Other observations

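Ddc, the decarboxylase that makes dopamine from DOPA, separated the libraries in another way than the groups. This gene was singled out after its values were seen. It had 50, 59 and 191 counts in controls 35, 36 and 37 and 64, 56 and 189 in TFEB 34, 41 and 43, so that 1 library of each group stood at 14.9 and 15.6 CPM and the other 4 at 3.36 to 4.14 CPM. Control 37 and TFEB 43 are also the libraries with the highest cardiomyocyte levels, 0.27 and 0.36. They are the only ones with more than 1 count of the atrial gene Bmp10. The level of the 3 atrial genes tested was instead highest in control 35, at 6.47, against 2.935 in control 37 and 1.17 in TFEB 43. Whether these values are linked was not tested.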
